A study of Mus musculus with 3 samples.

Results

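Fibroblast growth factor (FGF) signaling was examined through 10 genes, taken from the count tables by their symbols: the ligands Fgf2, Fgf7 and Fgf21, the receptors Fgfr1, Fgfr2 and Fgfr4, the decoy receptor Fgfrl1, and the feedback genes Spry2, Spry4 and Dusp6. All 10 were found among the 23238 gene symbols of the tables. RNA was taken from the immortalized mouse myoblast line c2c12, which fuses into myotubes when serum is reduced. Before harvest, all cells were kept for 2 days in myogenic induction medium, which is DMEM with 2% horse serum. They were grown on a tissue culture plate (TCP), on a hydrogel of 15% methacrylated gelatin (GelMA), or on the same hydrogel with 1% poly(sodium-4-styrenesulfonate) (GelMA-PSS), a sulfonated polymer that mimics heparin. RNA sequencing (RNA-seq) gave 1 library per substrate, and the labels state no added FGF and no genetic change. With n = 1 per substrate, differences cannot be set against a spread between cultures, and p-values are not given.

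FGFs are secreted proteins that bind receptor tyrosine kinases at the cell surface, and most of them do so together with heparan sulfate, a sulfated sugar chain to which heparin is closely related. Bound receptors signal through adaptors, Ras and the ERK kinases, and ERK activity in turn raises the transcription of inhibitors such as the Sprouty proteins and Dusp6, which damp the pathway again. In myoblasts, FGF2 is known to favor proliferation and to delay differentiation.

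Regulatory sequence upstream of the genes is given first for 4 members: Fgf7 and Dusp6, which were higher on both hydrogels than on TCP, Fgfrl1, which was lower on both, and Fgf21, the ligand with the highest level. The RefSeq promoter table lists 8 of the 10 members, all but Fgfr1 and Spry4. The windows of Fgf2 and Fgfr4 are not shown because all or most of their bases belong to annotated exons. The sequences are the 250 bases before the gene start in RefSeq on build GRCm38.p6, written 5′ to 3′ along the gene's strand. Fgf7 was the member with the largest difference between the hydrogels and TCP, and its window (chr2:126034408-126034657, + strand) lies in an intron of Fam227b, which runs on the other strand. The other windows are those of Dusp6 (chr10:99262981-99263230, + strand), of Fgfrl1 (chr5:108693979-108694228, + strand), which lies in an intron of a longer Fgfrl1 transcript, and of Fgf21 (chr7:45615491-45615740, - strand). Capitals mark matches to the motifs described in the next paragraph.
Fgf7: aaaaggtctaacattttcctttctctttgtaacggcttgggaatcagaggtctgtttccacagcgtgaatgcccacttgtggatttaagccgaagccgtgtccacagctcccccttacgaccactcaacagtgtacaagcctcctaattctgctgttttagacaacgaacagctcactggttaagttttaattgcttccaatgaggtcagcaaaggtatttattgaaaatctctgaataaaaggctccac
Dusp6: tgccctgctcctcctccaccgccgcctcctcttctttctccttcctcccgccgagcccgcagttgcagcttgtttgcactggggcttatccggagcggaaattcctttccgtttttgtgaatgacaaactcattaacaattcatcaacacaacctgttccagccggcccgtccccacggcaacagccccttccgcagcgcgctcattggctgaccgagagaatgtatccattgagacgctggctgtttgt
Fgfrl1: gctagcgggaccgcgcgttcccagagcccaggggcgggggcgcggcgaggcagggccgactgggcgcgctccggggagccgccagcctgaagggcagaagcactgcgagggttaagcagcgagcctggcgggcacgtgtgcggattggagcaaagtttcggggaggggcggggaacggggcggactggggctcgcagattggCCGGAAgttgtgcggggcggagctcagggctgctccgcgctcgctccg
Fgf21: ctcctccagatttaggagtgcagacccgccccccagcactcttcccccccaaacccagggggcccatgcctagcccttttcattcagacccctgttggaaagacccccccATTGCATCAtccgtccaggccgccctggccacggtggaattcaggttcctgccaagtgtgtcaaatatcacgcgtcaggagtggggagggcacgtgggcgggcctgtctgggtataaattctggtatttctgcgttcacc

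In these windows, 4 short motifs were searched on both strands: CCGGAA, the core bound by many ETS factors, which ERK can activate, TGANTCA, the site of AP-1, CAGCTG, an E-box of the kind bound by the MyoD family, and TGATGNAAT, the composite site of C/EBP and ATF4. CCGGAA was found once upstream of Fgfrl1 and once in the window of Fgfr4, where 178 of the 250 bases belong to an annotated exon of the gene. Of 32851 promoter windows of the same length, 12.0% hold this motif. TGATGNAAT was found once, upstream of Fgf21, in the reverse orientation, and 0.816% of all windows hold it. CAGCTG and TGANTCA, which 13.0% and 6.75% of all windows hold, were absent from the 8 windows. Among these, all 250 bases of the Fgf2 window belong to annotated exons. The Fgfr2 window lies within a transcript of Fgfr2, and the bases after its start were not found in a reference transcript. The GC content was 43.6% upstream of Fgf7 and 73.6% upstream of Fgfrl1, with a median of 52.4% over all windows. A match only describes these letters and is not a measurement of binding.

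The total counts ranged from 87071144 on GelMA to 192171443 on GelMA-PSS, with 119799095 on TCP. Levels are given as CPM, counts scaled to the library total with TMM factors. Ratios between substrates are differences of log2(CPM + 1), a scale that shrinks the changes of rare transcripts. Comparisons were limited to the 13169 genes that reached a CPM of 1 in any library, which kept 9 of the 10 members. A 95% interval beside a level or a ratio without pseudocount covers counting error only, not the spread between cultures, and would widen if mates of a read pair had been counted separately, on which the sources are silent. All 9 muscle markers found in the tables, of 10 listed, had a CPM over 1 in each library, and their summed CPM was 22380 on TCP, 16838 on GelMA and 13575 on GelMA-PSS. Myh3, the embryonic myosin heavy chain, made up most of this decrease, at 10182, 6355 and 3037 CPM. Of the 9 markers, 4 were lower and 3 higher on GelMA-PSS than on both other substrates. Past 2-fold against both, Myh3 and Mef2c were lower and 0 markers higher, beside 1.16% and 1.37% of compared genes. The median log2 ratio of the 9 was 0.14 to GelMA and -0.09 to TCP. After the correction for transcript length and GC content given below, it was -0.11 and -0.35. Of the markers of other cells, 0 of 4 endothelial, 2 of 5 adipocyte, 2 of 4 cartilage and bone and 1 to 2 of 4 blood cell markers reached a CPM of 1. Summed CPM over these lists ranged from 0.682 to 0.905 for endothelial, 14.5 to 17.3 for adipocyte, 37.7 to 49.1 for cartilage and bone and 1.77 to 2.55 for blood cell markers. The 4 markers of dividing cells summed to 170, 262 and 284 CPM on TCP, GelMA and GelMA-PSS, of which Cdk1 and Ccnb1 had this order, while Mki67 (42.6, 74.7 and 42.9) and Top2a (76.5, 114 and 110) were highest on GelMA. These markers moved with the substrate, and their part in the FGF results was not tested. In such bulk libraries, fewer cells that use a gene and less of its RNA per cell cannot be told apart.

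Per transcript length, Fgfr1 was the most abundant member in each library and Fgf21 came next. In TPM, which scales counts by transcript length, Fgfr1 was at 110 on TCP, 138 on GelMA and 71.3 on GelMA-PSS, and Fgf21 at 88.1, 91.9 and 70.6. On GelMA-PSS the intervals of the pair overlapped, so their order there was not resolved. Fgfrl1 was the third on TCP at 56.2 TPM, ahead of Spry2 at 43.3, but the fifth on GelMA and GelMA-PSS, behind Spry2 and Dusp6. Spry4 and Fgf7 followed Fgfr4, and exchanged ranks between TCP, where Spry4 was ahead, and the hydrogels, where Fgf7 was ahead. Fgf2 and Fgfr2 were lowest in each library, with intervals that overlapped on TCP and GelMA-PSS but not on GelMA.

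**Figure D1:**
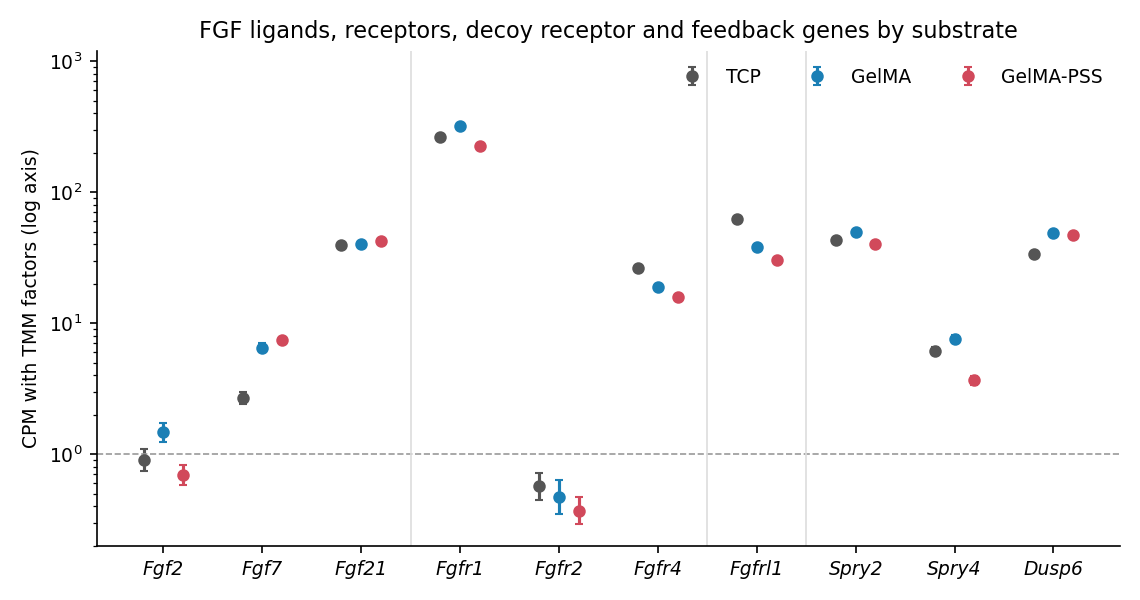
CPM with TMM factors of the 10 FGF genes on a log axis, with 1 point per library for TCP, GelMA and GelMA-PSS and bars for the 95% counting interval. The dashed line marks a CPM of 1, under which Fgfr2 lies in all 3 libraries. Fgf7 is at 2.67 on TCP and at 6.49 and 7.47 on the hydrogels, and Fgfrl1 and Fgfr4 step down from TCP to GelMA to GelMA-PSS.

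Among the ligands, Fgf7 was the only member that differed by more than 2-fold on the log2(CPM + 1) scale in any comparison. Fgf7, also called keratinocyte growth factor, acts mainly on the epithelial form of Fgfr2. It had 325 counts on TCP, 590 on GelMA and 1354 on GelMA-PSS, or CPM of 2.67, 6.49 and 7.47. Both hydrogels were high and TCP was low, with no overlap of the counting intervals. The log2 ratio was 1.03 for GelMA against TCP and 1.21 for GelMA-PSS against TCP, and without the pseudocount the level was 2.43-fold (interval 2.12 to 2.79) and 2.80-fold (2.48 to 3.17) that on TCP. Among all compared genes, 0.638% and 1.80% were as far above TCP in these comparisons. The hydrogels differed less, with a log2 ratio of 0.18 for GelMA-PSS against GelMA that was -0.22 in TPM. The gene spans chr2:126034658-126091185 on the + strand of GRCm38, with 4 exons.

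Fgf21, an endocrine FGF that muscle cells make under metabolic and amino acid stress, had CPM of 39.7, 39.9 and 42.4 on TCP, GelMA and GelMA-PSS, from 4832, 3624 and 7684 counts. TCP and GelMA were not told apart, with a ratio of 1.00 and an interval of 0.962 to 1.05. GelMA-PSS was 1.06-fold (1.02 to 1.11) GelMA and 1.07-fold (1.03 to 1.11) TCP, but with total counts without TMM factors the log2 ratios were -0.06 and -0.01. Klb, the co-receptor through which Fgf21 acts on its target cells, was singled out after its values were seen, and had 4, 6 and 4 counts. These counts are close to the 3 counts that set the floor of detection, which correspond to a CPM of 0.0246, 0.0330 and 0.0166. Fgf21 lies at chr7:45613886-45615490 on the - strand, with 3 exons.

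Fgf2, the basic FGF that binds heparin, was near the lower limit, with 110, 133 and 125 counts on TCP, GelMA and GelMA-PSS. The CPM were 0.903, 1.46 and 0.690, so that GelMA was high and the other libraries were low. The interval on GelMA, 1.24 to 1.73, lay apart from 0.750 to 1.09 on TCP and 0.579 to 0.822 on GelMA-PSS, and the last pair overlapped. Without the pseudocount, the level on GelMA-PSS was 0.471 times that on GelMA (0.366 to 0.606) and 0.764 times that on TCP (0.586 to 0.996), whereas the log2 ratios with the pseudocount were -0.54 and -0.17. Fgf2 (chr3:37348653-37410108, + strand) shares 640 exon bases with Nudt6 on the opposite strand, which had 775, 534 and 1231 counts, and 255 with Gm43439. Whether the counting used strand is not stated, so the reads of Fgf2 and Nudt6 may not be separated.

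Of the receptors, Fgfr1 carried most of the transcripts of the 4 signaling receptors in each library. Its share of the summed TPM of Fgfr1 to Fgfr4 was 82.6% on TCP, 89.1% on GelMA and 88.3% on GelMA-PSS. Fgfr4 held 12.5%, 7.99% and 9.32%, Fgfr3 held 4.71%, 2.72% and 2.23%, and Fgfr2 no more than 0.209%. Fgfr1 therefore made up a larger part of the receptor transcripts on both hydrogels than on TCP.

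Fgfr1, the main FGF receptor of myoblasts, had CPM of 262 on TCP, 318 on GelMA and 227 on GelMA-PSS, from 31902, 28927 and 41103 counts. GelMA was highest and GelMA-PSS lowest, with log2 ratios of 0.28 for GelMA against TCP, and for GelMA-PSS of -0.49 to GelMA and -0.21 to TCP. The gene (chr8:25518772-25575714, + strand, 18 exons in the transcript used) shares 164 exon bases with the antisense gene Gm16159, which had 3136, 3008 and 3898 counts.

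Fgfr4, a receptor with a high level in differentiating muscle, stepped down across the substrates, with CPM of 26.2, 18.8 and 15.8 from 3186, 1709 and 2860 counts on TCP, GelMA and GelMA-PSS. The 3 intervals did not overlap. The log2 ratio was -0.69 for GelMA-PSS against TCP, -0.46 for GelMA against TCP and -0.24 for GelMA-PSS against GelMA, so the larger step lay between TCP and GelMA. Only 4.30% of compared genes were as far below TCP on GelMA. Fgfr4 lies at chr13:55152640-55168759 on the + strand, with 18 exons.

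Fgfr2, whose epithelial form receives Fgf7, had 69, 43 and 67 counts and CPM of 0.567, 0.473 and 0.370, under the limit of 1 in each library. The level on GelMA-PSS was 0.653 times that on TCP (0.459 to 0.927) and 0.782 times that on GelMA (0.525 to 1.17), so the latter difference was not detectable at this depth. The transcript of Fgfr2 used here spans chr7:130162451-130266263 on the - strand. Over all its annotated transcripts, the gene shares 314 exon bases with Ctbp2, which had 2822, 2566 and 5332 counts.

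The decoy receptor Fgfrl1, which binds FGFs but has no kinase domain, showed the largest decrease of a member against TCP. Its CPM were 62.0, 38.4 and 30.6 on TCP, GelMA and GelMA-PSS, from 7553, 3487 and 5539 counts. TCP was high and GelMA-PSS low, with no overlap of the 3 intervals. On GelMA-PSS the level was 0.493 times that on TCP (0.476 to 0.510), and with the pseudocount the log2 ratio of -0.997 fell just short of the 2-fold threshold. On GelMA it was 0.619 times that on TCP (0.594 to 0.644), a log2 ratio of -0.68 that 1.40% of compared genes reached or passed in that direction. GelMA-PSS was 0.797 times GelMA (0.764 to 0.832). Fgfrl1 lies at chr5:108694502-108706896 on the + strand, with 7 exons in the transcript used.

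The 3 feedback genes were all higher on GelMA than on TCP and lower on GelMA-PSS than on GelMA. For GelMA-PSS against TCP their directions differed, with Spry2 and Spry4 lower and Dusp6 higher. The order of Spry2 and Spry4, with GelMA highest and GelMA-PSS lowest, was that of 18.2% of all compared genes. The order of Dusp6, with GelMA highest and TCP lowest, was that of 7.57%. Spry4, a Sprouty protein that inhibits the pathway upstream of ERK, had 749, 686 and 661 counts, or CPM of 6.15, 7.55 and 3.65 on TCP, GelMA and GelMA-PSS. GelMA-PSS was low, and its interval of 3.38 to 3.94 lay under 5.73 to 6.61 on TCP and 7.0 to 8.14 on GelMA. The level was 0.483 times that on GelMA (0.434 to 0.539) and 0.593 times that on TCP (0.533 to 0.659), with log2 ratios of -0.88 and -0.62. Against GelMA, 3.66% of compared genes were as far below. Spry4 lies at chr18:38586247-38601415 on the - strand.

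Spry2, another Sprouty inhibitor, was at higher levels and differed less, with CPM of 42.8, 49.6 and 40.3 from 5212, 4504 and 7300 counts. GelMA was highest, and GelMA-PSS had a log2 ratio of -0.29 to GelMA and of -0.08 to TCP. The ratio to TCP without the pseudocount was 0.941 (0.908 to 0.976). Spry2 lies at chr14:105891947-105896819 on the - strand.

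Dusp6, a phosphatase that inactivates ERK, followed another order, with CPM of 33.9 on TCP, 49.1 on GelMA and 47.1 on GelMA-PSS from 4130, 4463 and 8538 counts. Both hydrogels were high and TCP was low. The level on GelMA was 1.45-fold that on TCP (1.39 to 1.51) and that on GelMA-PSS 1.39-fold (1.34 to 1.44), while GelMA-PSS was 0.960 times GelMA (0.925 to 0.995). On the log2 scale these ratios were 0.52, 0.46 and -0.06, and 4.72% of compared genes were as far above TCP on GelMA. Dusp6 lies at chr10:99263231-99267488 on the + strand, with 3 exons.

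With the 2-fold threshold, 0 of 9 members passed against both controls in the GelMA-PSS library, where 1.37% of all compared genes were higher and 1.16% lower. Against GelMA alone, 0 members passed, with 1.77% of genes higher and 2.33% lower. Against TCP alone, Fgf7 passed, with 3.72% of genes higher and 3.13% lower. Between GelMA and TCP, Fgf7 passed as well, with 0.706% of genes higher on GelMA and 0.296% lower. The comparisons share libraries, so the pair of calls on Fgf7 rests on the same TCP library.

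With a 1.5-fold threshold, GelMA-PSS was lower than both controls for Spry4 and for 7.18% of all genes, and higher for 8.08%. Against GelMA, Spry4 was the single member past this threshold, with 10.8% of genes lower and 11.0% higher. Against TCP, Fgf7 was higher and Fgfr4, Fgfrl1 and Spry4 were lower, with 13.2% of genes higher and 11.5% lower. Between GelMA and TCP, Fgf7 was higher and Fgfrl1 lower on GelMA, with 3.50% and 2.12% of all genes.

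**Figure D2:**
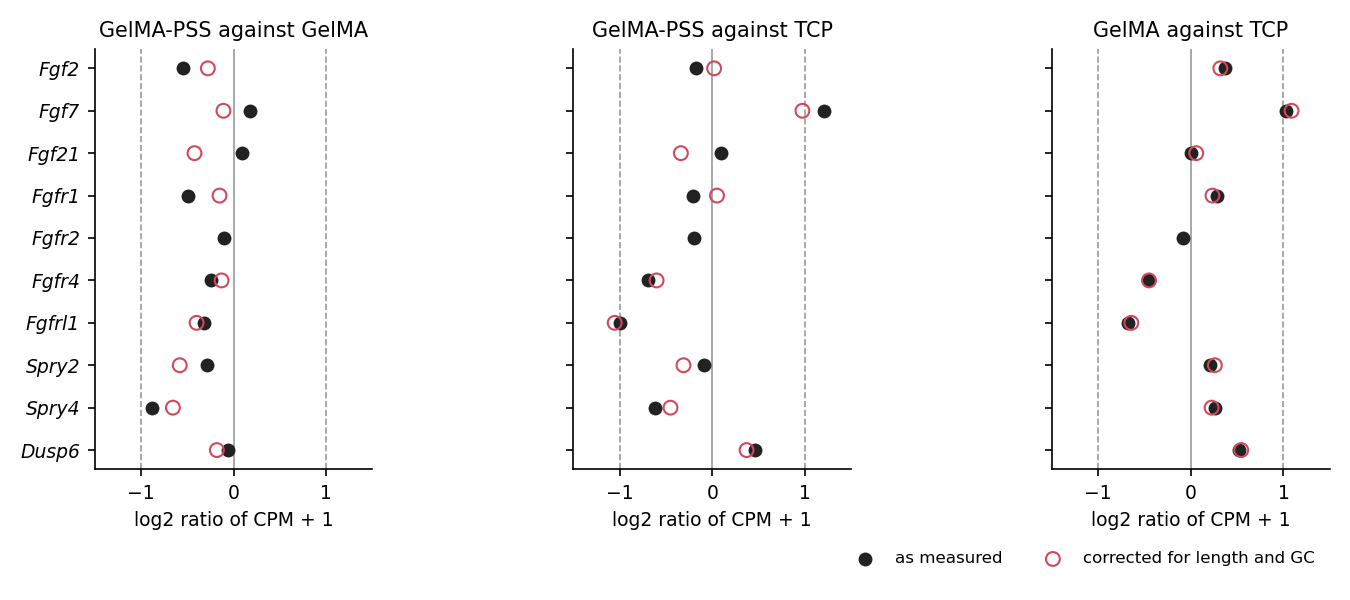
Log2 ratios of CPM + 1 for the 10 genes in the 3 comparisons, as measured (filled points) and after correction for transcript length and GC content (open points), with dashed lines at 2-fold. Fgf7 lies past 2-fold to the right in both comparisons with TCP as measured, and Fgfrl1 lies at -0.997 for GelMA-PSS against TCP. Fgfr2 was under the level limit and has no corrected value.

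In direction, GelMA-PSS was below both controls for 6 of the 9 members compared, above both for 2 and between them for Dusp6. The 2 above were Fgf7 and Fgf21, and their number was 1 with total counts without TMM factors, 0 in TPM and 0 after the correction for transcript length. The number below both was 7 with total counts, 6 of 8 in TPM and 5 after the correction. Over all compared genes, 39.3% were lower than both and 45.3% higher. The median log2 ratio of the 9 members was -0.29 against GelMA and -0.17 against TCP, where the medians of all genes were 0.03 and 0.04. For GelMA against TCP it was 0.26, with -0.01 over all genes. These are descriptions of a short list and not tests.

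The ratios of the GelMA-PSS library moved with transcript length across all genes. Spearman's rho between transcript length and the log2 ratio, over 13060 genes, was -0.67 for GelMA-PSS to GelMA and -0.52 to TCP, and 0.21 between GelMA and TCP. These correlations are across genes of the same libraries and are not tests. The member transcripts range from 951 bases for Fgf21 to 5973 for Fgf2. Beside each member, the median of the genes of similar length, from 10 length classes of equal size, is therefore given for GelMA-PSS against GelMA. Fgf21, at 0.09, lay below its class at 0.58, Spry2, at -0.29, below 0.26, and Fgfrl1, at -0.32, below 0.17. Fgfr4, at -0.24, lay below a class median within 0.01 of 0. Spry4, at -0.88, lay below -0.22, Fgfr1, at -0.49, below the same -0.22, and Fgf2, at -0.54, below -0.36. Fgf7 alone, at 0.18, lay above its class at 0.10, which it shares with Dusp6 at -0.06.

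After a loess correction for transcript length and GC, several small ratios moved or changed sign, while the larger ones kept their direction. Spry4 was at -0.66 against GelMA and -0.45 against TCP, and Fgfrl1 at -0.40 and -1.05, which put Fgfrl1 past 2-fold against TCP. Fgf7 was at 0.97 for GelMA-PSS against TCP, no longer past 2-fold, and at 1.09 for GelMA against TCP. Spry2 came to -0.58 against GelMA and -0.31 against TCP, and Fgf21 to -0.42 and -0.34, against 0.09 and 0.09 as measured. Fgfr1 came to -0.15 and 0.05. How much of the dependence on length comes from library preparation was not tested.

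**Figure D3:**
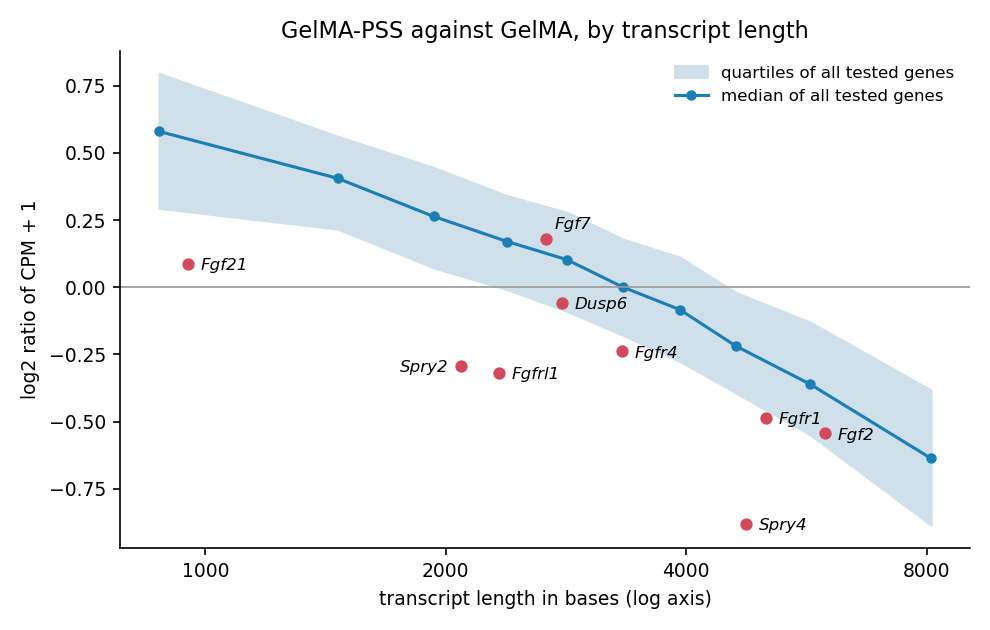
Log2 ratio of CPM + 1 for GelMA-PSS against GelMA by transcript length on a log axis, with the median (line) and quartiles (band) of all compared genes in 10 length classes and the 9 compared FGF genes as points. Fgf21, Spry2, Fgfrl1, Fgfr4, Fgfr1 and Spry4, or 6 of the 9, lie under the lower quartile of their length class, and Fgf7 lies above the median line.

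Because Spry4 had the largest ratio to the nearer control, genes with the closest pattern over the 3 libraries were sought among the 10954 genes that reached a CPM of 5 in any library. The nearest by Euclidean distance between centred log2(CPM + 1) values were Aff1 (0.00822), Mkl2 (0.0155) and Zcchc14 (0.0167). Aff1, for example, was at 68.0, 81.9 and 43.8 CPM on TCP, GelMA and GelMA-PSS. In all, 121 of the 10954 genes lay within 0.1 of Spry4, and 3 libraries allow no more than a description of likeness.

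The rest of the pathway was described with a list of 79 other FGF genes, written by role, of which 61 were compared. In the GelMA-PSS library 32 of them (52.5%) lay below both controls and 13 (21.3%) above both, beside 39.3% and 45.3% of all genes, and 0 passed 2-fold against both. With total counts these numbers were 37 and 6, and in TPM 53 and 0 of 59. The medians of all genes were -0.10 against GelMA and -0.06 against TCP with total counts, and -0.37 and -0.32 in TPM. Numbers under these 2 settings, here and for the roles below, carry this shift of all genes. The list had a median log2 ratio of -0.24 to GelMA and -0.27 to TCP, and after the length and GC correction of -0.14 and -0.11. Its transcripts were long, with a median of 4056 bases beside 3068 over all compared genes.

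Of 15 other secreted ligands, 12 stayed under a CPM of 1 in each library. Of the 3 that were compared, Fgf10 had CPM of 6.27 on TCP, 9.17 on GelMA and 4.93 on GelMA-PSS, the same order as Fgf2. Fgf5 was at 6.58, 4.72 and 5.35, and Fgf9 at 1.03, 0.242 and 0.618, so that for both the GelMA library was lowest. The 3 compared FGF homologous factors, which stay inside the cell and bind sodium channels, had their lowest level on GelMA-PSS. Over all genes, 39.3% were lower than both controls there. Of these factors, Fgf12 was near the limit, at 0.944, 1.34 and 0.546 CPM from 115, 122 and 99 counts. Fgf13 was at 3.10, 1.84 and 0.927 CPM, past 2-fold against TCP with a log2 ratio of -1.09. Past that threshold, 3.13% of all genes were lower than on TCP.

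The compared genes listed as receptors and co-receptors were the signaling receptor Fgfr3, the FGF binding protein Fgfbp1, and Flrt1, Flrt2, Ncam1, Cdh2 and Glg1. Of these 7, 6 were lower than both controls on GelMA-PSS and 0 higher, beside 39.3% and 45.3% of all genes. The numbers were the same with total counts, but 7 and 0 in TPM, and 5 and 1 after the length and GC correction, where Flrt1, an FGF receptor partner, was at 0.41 to GelMA and 0.47 to TCP. Fgfr3, the remaining signaling receptor, was at 12.6 CPM on TCP, 8.17 on GelMA and 4.82 on GelMA-PSS. Its log2 ratio to TCP was -1.22 and to GelMA -0.66, and it kept the order of Fgfr4 and Fgfrl1, with TCP high and GelMA-PSS low. After the correction the ratios were -1.04 and -0.43. The median of these 7 genes was -0.43 against GelMA and -0.71 against TCP, and -0.19 and -0.54 after the correction.

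Of the adaptors that link receptors to Ras, 8 of 13 had their lowest level on GelMA-PSS and 3 their highest, beside 39.3% and 45.3% of all genes. The adaptor numbers were 11 and 0 with total counts, 13 and 0 in TPM and 7 and 2 after the correction. Sos1, an exchange factor that activates Ras, was at 40.9, 39.9 and 22.5 CPM on TCP, GelMA and GelMA-PSS, with a log2 ratio of -0.80 against GelMA that came to -0.29 after the correction. Grb2, the adaptor that brings Sos1 to the receptor, was at 115, 99.7 and 122 CPM. In the Ras-ERK cascade, 5 of 14 genes were lower and 3 higher, with medians of -0.02 and -0.04, but 7 and 2 with total counts, 13 and 0 in TPM and 5 and 5 after the correction. Braf was at 18.3, 21.4 and 11.6 CPM, and its log2 ratio to GelMA of -0.83 came to -0.18 after the correction for its transcript of 9728 bases. Mapk3, which encodes ERK1, was at 80.5, 106 and 131 CPM, highest on GelMA-PSS. Its log2 ratio to GelMA of 0.30 came to 0.10 after the correction for its transcript of 1800 bases. In TPM it was at 129 on GelMA and 116 on GelMA-PSS.

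Of 11 other feedback inhibitors compared, GelMA-PSS was lower than both controls for 6 and higher for 1, beside 39.3% and 45.3% of all genes. The inhibitors numbered 6 and 0 with total counts, 10 and 0 in TPM and 5 and 0 after the correction. Il17rd, a membrane inhibitor of FGF receptors, was at 10.7, 12.1 and 6.53 CPM, the same order as Spry4, with a log2 ratio to GelMA of -0.80, and of -0.18 after the correction. Dusp1, a nuclear phosphatase of MAP kinases, was at 75.6, 53.7 and 78.8 CPM. Cbl, a ubiquitin ligase that removes receptors, was the single listed gene past 2-fold against GelMA, at 9.48, 19.8 and 7.36 CPM, and its log2 ratio of -1.32 came to -0.47 after the correction.

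For the ERK-responsive transcription factors and targets, GelMA-PSS was above both controls for 6 of 10 and below both for 3, beside 45.3% and 39.3% of all genes. With total counts these numbers were 4 and 3, after the correction 5 and 3, and in TPM, where the median of all genes against GelMA was -0.37, they were 0 and 6. Fosl1, an AP-1 subunit, was at 6.39, 12.7 and 17.1 CPM on TCP, GelMA and GelMA-PSS, and Ccnd1, the cyclin of early G1, at 28.6, 58.1 and 74.4. Both were past 2-fold against TCP, with log2 ratios of 1.29 and 1.35, where 3.72% of all genes were higher. In CPM they shared with Fgf7 the order of TCP low and GelMA-PSS high, but in TPM Fgf7, Fosl1 and Ccnd1 were each highest on GelMA. Etv1, an ETS factor, was at 14.6, 17.0 and 10.4 CPM. The dividing cell markers Cdk1 and Ccnb1 had the order of Fosl1 too, but Mki67 and Top2a did not, and their part in the levels of Fosl1 and Ccnd1 was not tested.

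**Figure D4:**
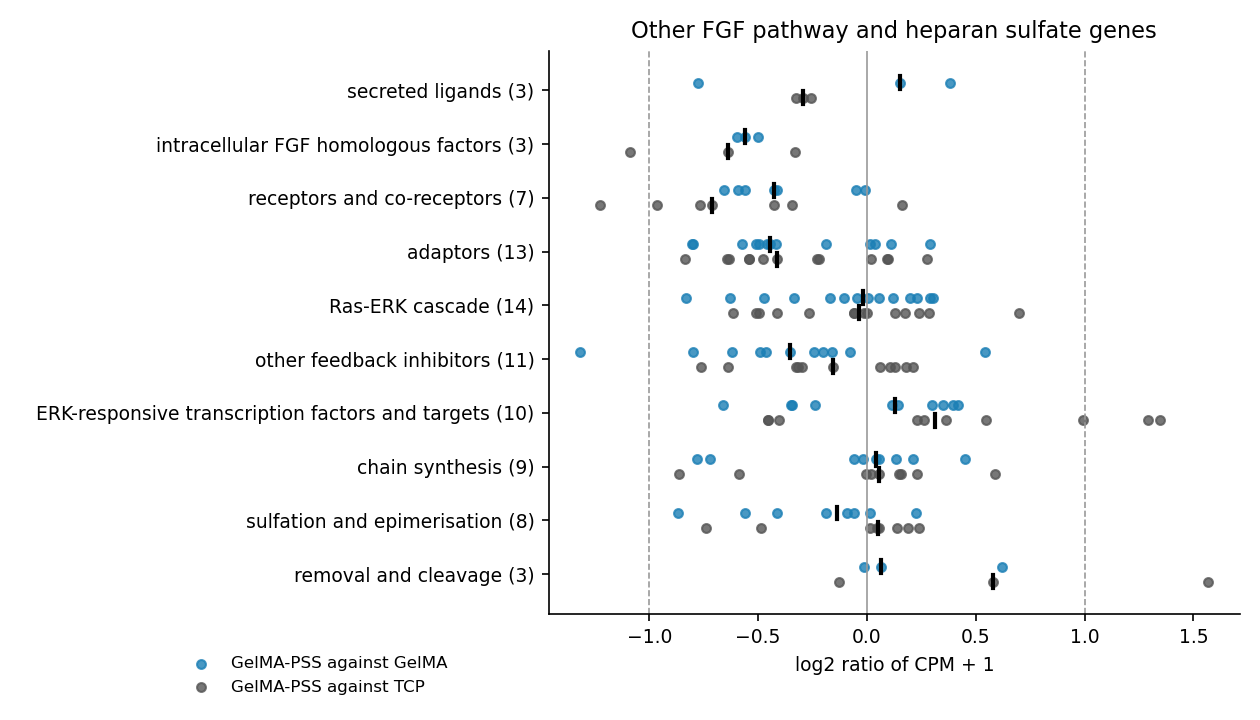
Log2 ratios of CPM + 1 in GelMA-PSS against GelMA (blue) and against TCP (grey) for the compared genes of the wider FGF list and the heparan sulfate list, by role, with the number of genes in brackets, black bars for medians and dashed lines at 2-fold. Receptors and co-receptors have medians of -0.43 and -0.71, and ERK-responsive genes have medians of 0.13 and 0.31.

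Since FGFs bind their receptors together with heparan sulfate, which the sulfonated polymer mimics, 30 genes that make, sulfate or trim these chains were described as well. Of the 20 compared, GelMA-PSS was above both controls for 9 (45.0%) and below both for 6 (30.0%), beside 45.3% and 39.3% of all genes. Of these 20, 0 passed 2-fold against both. With total counts, the balance turned to 3 above and 9 below, and in TPM to 1 above and 14 below of 17. After the length and GC correction it was 10 above and 5 below. The median log2 ratio to GelMA was -0.01 and to TCP 0.06, and 0.03 and 0.16 after the correction. Ext1, which elongates the chain, was at 264, 291 and 397 CPM on TCP, GelMA and GelMA-PSS, and its log2 ratio of 0.45 against GelMA came to 0.93 after the correction for its transcript of 7663 bases. Extl1, a relative of Ext1, was at 6.09, 5.69 and 2.90 CPM.

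Hpse, the heparanase that cleaves the chains, had 269, 472 and 1543 counts, or 2.21, 5.19 and 8.52 CPM. It was low on TCP and highest on GelMA-PSS, with a log2 ratio of 1.57 against TCP, 0.62 against GelMA and 0.95 for GelMA against TCP. Of the sulfation genes, Hs6st1, which adds the 6-O-sulfate used in FGF receptor binding, was at 49.1, 43.4 and 29.1 CPM, and Ndst4 at 1.12, 1.13 and 1.5. Sulf2, which removes 6-O-sulfate again, was at 15.9, 14.6 and 14.5 CPM.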

How the data were processed

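RNA-seq of c2c12 cells on 3 substrates was analysed, with 1 library each. The deposited values are counts for each gene symbol that the authors had not normalized. The submitters' processing notes name TopHat, edgeR and the builds mm10 and hg19 without their roles, and the counting tool and annotation are not given in the sources used here. The methods name a TruSeq kit and strand-specific paired-end reads, whereas the labels name a SMARTER kit. Of 23282 lines, 35 symbols stood on more than 1 line and were summed.

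TMM factors of edgeR 4.0.16 (TCP 1.02, GelMA 1.04, GelMA-PSS 0.943) scaled the counts to CPM, and ratios used a pseudocount of 1. Intervals were Wilson intervals for levels and exact binomial intervals for ratios, at 95%. TPM and the correction for length and GC content (successive loess fits, span 0.3, statsmodels 0.14.6) used 1 transcript per gene of GENCODE vM21 (GRCm38), with 22197 symbols matched directly, 669 through older symbols and 372 not matched. The procedure was tested on simulated data. The 2-fold threshold comes from the study's methods, where it was set on FPKM, which were not used here. All 10 members are named, and of the other lists, in each role the compared genes with the largest increase and decrease against the nearer control. Other genes were named after their values were seen. The members and lists were chosen with earlier results of these data known.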

Additional observations from a re-analysis of the deposited data

How the results depend on the processing

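No paired analysis was possible because each substrate has 1 library, and for the same reason no library could be left out. With the 2-fold threshold, 0 members passed against both controls under every alternative that kept this threshold. The 1.5-fold threshold gave 1 member against both controls, 1 against GelMA alone, 4 against TCP alone and 2 between GelMA and TCP. Against both controls it also gave 4 of 61 genes of the wider FGF list (Fgfr3, Sos1, Braf and Il17rd, all lower). Of the 20 compared heparan sulfate genes it gave 3 (Extl1 and Extl3 lower, Hpse higher). Over all compared genes, 7.18% were lower and 8.08% higher than both controls past this threshold. A pseudocount of 0.1 gave 1 member against GelMA (Spry4, lower) and 2 against TCP (Fgf7 higher, Fgfrl1 lower). Total counts without TMM factors, median-of-ratios factors and upper-quartile factors gave the same 2 members against TCP. TPM gave 1 member against GelMA (Spry4, lower), 2 against TCP (Fgfr4 and Fgfrl1, lower) and 2 genes of the wider list (Ncam1 and Sos1, lower), but in TPM 1042 of 12748 genes were lower and 43 higher past 2-fold against GelMA, and 1044 lower and 148 higher against TCP. Over all genes, 180 were higher and 153 lower than both controls past 2-fold, but 97 and 261 with total counts, 31 and 623 in TPM and 259 and 294 with the pseudocount of 0.1. The median of all genes for GelMA-PSS against GelMA was 0.03, but -0.10 with total counts and -0.37 in TPM, and against TCP it was 0.04, -0.06 and -0.32, so the TPM ratios of the members are low by about this shift. With ratios corrected for transcript length and GC the count against TCP stayed at 1, with Fgfrl1 in place of Fgf7.

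Of 267 alternative values of a member's log2 ratio, 10 had another sign: 5 with the correction, 3 in TPM and 2 with total counts. Of these, 6 belong to Fgf21, 2 to Fgf7 (against GelMA) and 1 each to Fgf2 and Fgfr1 (against TCP). The other thresholds on low levels leave a member's ratio unchanged by construction, so their values, which are among the 267, could not have another sign. The pseudocount of 0.1 changes the size of a ratio but cannot change its sign, and its values are among the 267 too. The other treatment of repeated symbols gave none. The depth limits Fgf2 and Fgfr2 most, with 43 to 133 counts per library.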
